A study of Homo sapiens with 12 samples.

Results

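The comparison described here is ZNF263 against control vector in H1975, an established human lung adenocarcinoma line whose EGFR gene carries an activating mutation and a further mutation that blocks older EGFR inhibitors. It covers 4 of the series' 12 RNA-seq libraries: H1975 with the control vector (2 libraries) and H1975 in which ZNF263 was overexpressed (2 libraries). It takes in the 11001 of 20003 named genes that reached 1 FPKM (fragment counts normalised to gene length and sequencing depth) in 2 or more of these libraries. The other 8 libraries hold the same pair of groups in PC9 and HCC827, also lung cancer lines with mutant EGFR. Every group, controls included, came from cells grown in DMEM under stepwise osimertinib, an EGFR inhibitor. Whether the drug was present at harvest, and whether each vector's cells were a pool or 1 clone, is not given in the sources used here. Nor do the labels say that the 2 libraries of a group came from separate cultures, so p-values measure only the spread between libraries, which may be technical.

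ZNF263 is a nuclear zinc finger protein with a SCAN and a KRAB domain. KRAB domains recruit the co-repressor TRIM28 and through it the histone methyltransferase SETDB1, and ZNF263 is known to bind purine-rich repeats of the letters GGA. EGFR signals through the RAS-MAPK cascade, which induces genes such as CCND1, FOSL1 and the DUSP phosphatases. Carcinoma cells that pass through an epithelial-mesenchymal transition lose cadherin and claudin junctions and make more matrix proteins, and the repressors ZEB1, ZEB2, SNAI1 and SNAI2 that can drive it bind E-boxes with the letters CAGGTG.

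The 7 stretches below are the 250 bases before the start site, on the gene's strand, of 4 epithelial genes that fell, of EGFR, and of 2 collagen genes that rose. They come from RefSeq (GRCh38.p14) and were chosen with the changes and the matches known. Capitals mark matches, on either strand, to the E-box CAGGTG (on the other strand it reads CACCTG) or to the GGA repeat GGAGGAGG (CCTCCTCC), where overlapping matches were each counted. CRB3, a polarity protein, lies at chr19:6464021-6464270 (plus strand), and AP1M2, an epithelial clathrin adaptor, at chr19:10587313-10587562 (minus). RAB25, an epithelial trafficking GTPase, lies at chr1:156060910-156061159 (plus), and CLDN7, a claudin, at chr17:7263214-7263463 (minus). EGFR lies at chr7:55018767-55019016 (plus), COL6A2 at chr21:46097862-46098111 (plus) and COL12A1 at chr6:75206054-75206303 (minus).
CRB3: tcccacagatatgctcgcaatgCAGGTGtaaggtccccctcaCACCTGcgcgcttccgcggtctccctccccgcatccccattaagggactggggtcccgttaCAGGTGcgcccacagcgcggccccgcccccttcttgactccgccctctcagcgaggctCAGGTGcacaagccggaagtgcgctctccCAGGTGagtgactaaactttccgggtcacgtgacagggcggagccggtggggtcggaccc
AP1M2: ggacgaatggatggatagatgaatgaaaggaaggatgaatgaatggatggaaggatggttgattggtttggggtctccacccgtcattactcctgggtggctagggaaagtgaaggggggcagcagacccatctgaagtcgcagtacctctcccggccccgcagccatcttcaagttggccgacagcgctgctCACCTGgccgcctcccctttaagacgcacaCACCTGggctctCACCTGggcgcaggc
RAB25: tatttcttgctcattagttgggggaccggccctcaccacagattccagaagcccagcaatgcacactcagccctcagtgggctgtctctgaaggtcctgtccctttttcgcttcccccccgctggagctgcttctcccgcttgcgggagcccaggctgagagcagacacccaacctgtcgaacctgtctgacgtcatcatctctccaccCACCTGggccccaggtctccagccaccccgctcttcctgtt
CLDN7: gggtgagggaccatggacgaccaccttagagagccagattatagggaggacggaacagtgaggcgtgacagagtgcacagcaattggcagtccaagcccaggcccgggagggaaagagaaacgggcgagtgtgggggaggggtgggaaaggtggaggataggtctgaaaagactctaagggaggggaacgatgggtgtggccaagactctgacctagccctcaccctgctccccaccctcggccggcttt
EGFR: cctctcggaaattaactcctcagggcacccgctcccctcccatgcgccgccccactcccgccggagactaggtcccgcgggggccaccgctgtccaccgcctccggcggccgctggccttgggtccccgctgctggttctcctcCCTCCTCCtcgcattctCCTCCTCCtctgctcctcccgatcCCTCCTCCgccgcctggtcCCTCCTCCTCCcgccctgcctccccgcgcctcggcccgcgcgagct
COL6A2: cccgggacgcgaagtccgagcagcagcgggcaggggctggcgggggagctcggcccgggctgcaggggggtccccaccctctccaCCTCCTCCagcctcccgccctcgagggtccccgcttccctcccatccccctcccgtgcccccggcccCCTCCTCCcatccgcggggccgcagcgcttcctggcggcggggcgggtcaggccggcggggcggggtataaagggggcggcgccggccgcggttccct
COL12A1: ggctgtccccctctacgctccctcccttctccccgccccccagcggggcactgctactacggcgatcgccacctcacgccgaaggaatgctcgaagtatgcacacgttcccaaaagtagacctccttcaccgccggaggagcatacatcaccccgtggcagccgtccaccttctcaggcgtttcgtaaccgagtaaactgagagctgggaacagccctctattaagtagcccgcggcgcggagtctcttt
The E-box occurs 5 times in the CRB3 stretch, 3 times in AP1M2, 1 time in RAB25 and 0 times in CLDN7, which fell more than any of them. The GGA repeat occurs 5 times in EGFR, which fell, 2 times in COL6A2, which rose, and 0 times in COL12A1, which rose more.

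Among promoters of this length the E-box was found in 17.5% of all 27305, in 15.6% of the 8977 tested genes that matched the table, in 10.4% of the 356 called genes that rose by a log2 of 1 or more and in 30.3% of the 396 that fell by as much. It was in 8 of the 17 tested junction genes with a sequence, in 6 of 12 epithelial regulators, in 1 of 11 collagen genes and in 2 of 24 interferon response genes. For the GGA repeat the shares were 8.98%, 10.8%, 12.6% and 16.4%, and it was in 2 of 17 junction genes, 2 of 12 regulators, 4 of 11 collagen genes and 1 of 24 interferon response genes. These are shares of letters in a window, which differ with base composition, and they say nothing of binding.

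ZNF263 was measured at 10.2 and 9.63 FPKM in the control libraries and at 39.1 and 39.8 FPKM with ZNF263. The controls lay below both overexpressing libraries, 3.98-fold apart on the means, which fits the labels, and the gene rose by 1.89 ± 0.0524 in log2 units (SE, limma adjusted p = 1.93e-08). It lies at chromosome 16 from 3263800 to 3301401 (plus strand) in GRCh38, as do all positions given below, and is protein-coding like the other genes named here unless said otherwise. Depth was alike in the 4 libraries, with 1 FPKM standing for between 118.8 and 128.4 reads of the median gene and between 10672 and 10730 genes at 1 FPKM or more. Libraries of a group varied by more than read sampling, with a mean chi-square between 2.93 and 5.25 where sampling gives 1.

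Across the genome, expression differed widely between the vectors. limma called 7759 of the 11001 genes at an adjusted p under 0.05 (70.5%), 3929 higher (35.7%) and 3830 lower (34.8%) with ZNF263, and in 85.5% of genes the libraries of the vectors did not overlap. A lack of overlap, given below for some genes, was thus common and sets no gene apart. Because most genes were called, counts over gene lists below have to be set against these shares of 35.7% higher and 34.8% lower. A list with counts near them does not stand apart from other genes. The integrin, TGF-beta, cholesterol synthesis and respiratory chain lists below lay near them in both directions. Called changes by a log2 of 1 or more comprised 482 genes (4.38%) that rose and 576 (5.24%) that fell (9.62% in all). The same test called 17.5% of genes in PC9 and 13.9% in HCC827, with 0.41% and 0.246% changed by a log2 of 1 or more. Over 15906 genes, Spearman's rho was 0.994 between libraries of 1 vector and between 0.964 and 0.965 across vectors. Against the HCC827 controls it lay between 0.902 and 0.905 for the H1975 controls and between 0.894 and 0.897 for the ZNF263 libraries. Of the 15906 genes, none at 5 FPKM or more in both libraries of 1 vector was under 0.1 FPKM in both of the other. In that way 41 and 24 genes separated the HCC827 and H1975 controls.

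Changes also ran along chromosomes. For each gene, the median log2 change of its 50 nearest tested genes (25 on each side) was taken as its neighbours' change. In H1975 these medians ran from -0.91 to 0.88 and were 0.2 or more in size for 42.4% of genes, against 0% in PC9 and 0% in HCC827. On chromosome 22, 80.2% of tested genes were called higher, with a median change of 0.49. Chromosomes 6 and X had medians of 0.31 and 0.32, chromosome 8 reached a neighbour median of -0.91, and chromosome 19 ran from -0.79 to 0.81. Changes are on the log2(FPKM + 1) scale, which understates those of low genes: of the genes named here, 23 changed by more than 1.5 times as much with a pseudocount of 0.1. A value "less its neighbours" below is the log2 change minus that median. Of the 7759 calls, 5333 were kept in the same direction less the neighbours. Of the 1058 changes by a log2 of 1 or more (1057 placed on a chromosome), 1056 were kept. No neighbour median reached 1 in size, so these larger changes could not turn direction, and this count says little. Less the neighbours, 373 genes were called higher and 509 lower by a log2 of 1 or more, against 482 and 576 before. The part of the chromosomal shifts in single genes was not tested otherwise, and a gene's value less its neighbours is given where the call changes or where the change of a called gene moves by more than 1.5 times.

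**Figure D1:**
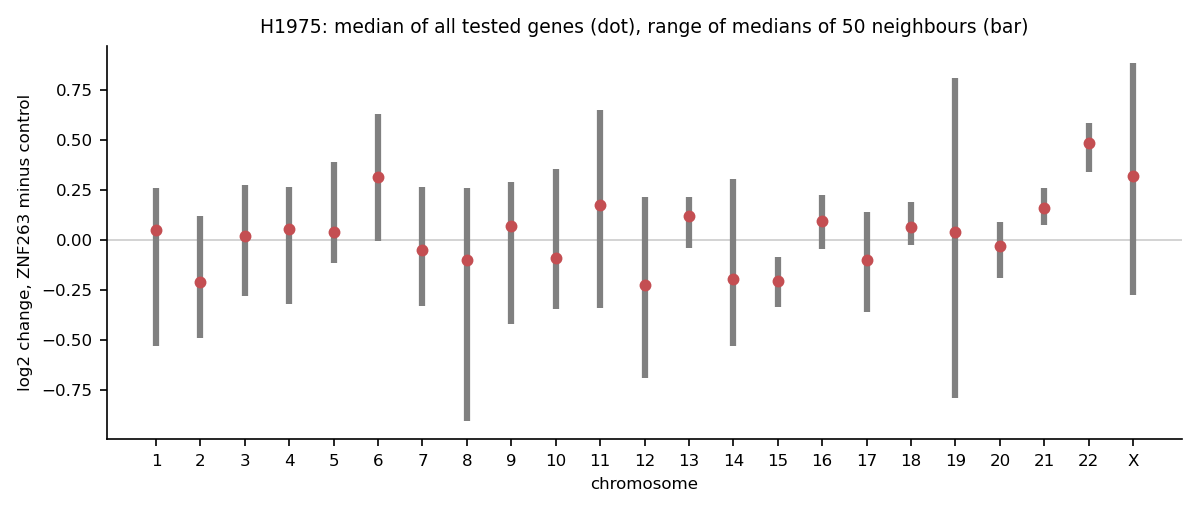
For each chromosome, the dot is the median log2 change (ZNF263 minus control, on log2(FPKM + 1)) of all genes tested in H1975, and the bar spans the lowest to the highest median of 50 neighbouring genes. Chromosome 22 lies above 0 throughout, and the bars of chromosomes 8 and 19 reach -0.91 and -0.79.

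Epithelial adhesion genes fell almost as a block. Of 35 junction and adhesion genes, 34 were tested, 32 fell, 1 rose and 1 did not pass, and 26 fell by a log2 of 1 or more. Their median change was -1.66 on the log2 scale, against 0.01 for all genes tested. EPCAM, an adhesion molecule of simple epithelia, lies at chromosome 2 from 47345158 to 47387601 (plus strand) and was measured at 219.9 and 229.6 FPKM in the control libraries and at 31.2 and 32.2 FPKM with ZNF263. Both ZNF263 libraries lay far below both controls, and EPCAM fell by 2.79 ± 0.0392 in log2 units (SE, limma adjusted p = 1.05e-09). CDH1, E-cadherin, the calcium-dependent adhesion receptor of adherens junctions, lies at chromosome 16 from 68737225 to 68835548 (plus strand) and stood at 64.03 and 69.1 FPKM in the control libraries and at 12.5 and 14.4 FPKM with ZNF263. It fell by 2.23 ± 0.0681 in log2 units (SE, limma adjusted p = 3.14e-08), with no overlap between the vectors. In bulk libraries, fewer cells that express a gene and less RNA per cell cannot be told apart.

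The tight junction claudins fell together. CLDN7 stood at 163 and 168 FPKM in the control libraries and at 23.4 and 24.9 FPKM with ZNF263 and fell by 2.73 (SE 0.0431, limma adjusted p = 1.39e-09), and CLDN4 at 144 and 153 FPKM in the control libraries and at 30.8 and 25.4 FPKM with ZNF263, where it fell by 2.37 (SE 0.0767, limma adjusted p = 4.39e-08). CLDN3 and CLDN1 fell (-1.75 and -1.46), and OCLN, occludin, fell by 1.47. TJP1, a scaffold below these proteins, fell by 0.47 (-0.19 less its neighbours), a smaller change than that of any of the 4 claudins. CDH3, P-cadherin, fell by 2.57, and JUP, plakoglobin, which links cadherins and desmosomes to the cytoskeleton, fell by 1.90. Desmosomal genes changed less evenly. DSC2 and PKP2 fell (-1.45 and -1.17), DSG2 and PKP3 fell (-0.76 and -0.87), and PPL, periplakin, fell by 1.78. ST14, the membrane protease matriptase, fell by 2.44, PRSS8, prostasin, fell by 2.12, and their inhibitors SPINT1 and SPINT2 fell (-2.47 and -2.30). The surface protein CD24 fell by 2.41. AP1M2 fell by 2.55 and CRB3 fell by 1.90. CXADR, a receptor of tight junctions, was the 1 member that rose, by 0.73, and PARD6B, a polarity protein, stood at -0.19 (limma adjusted p = 0.129).

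**Figure D2:**
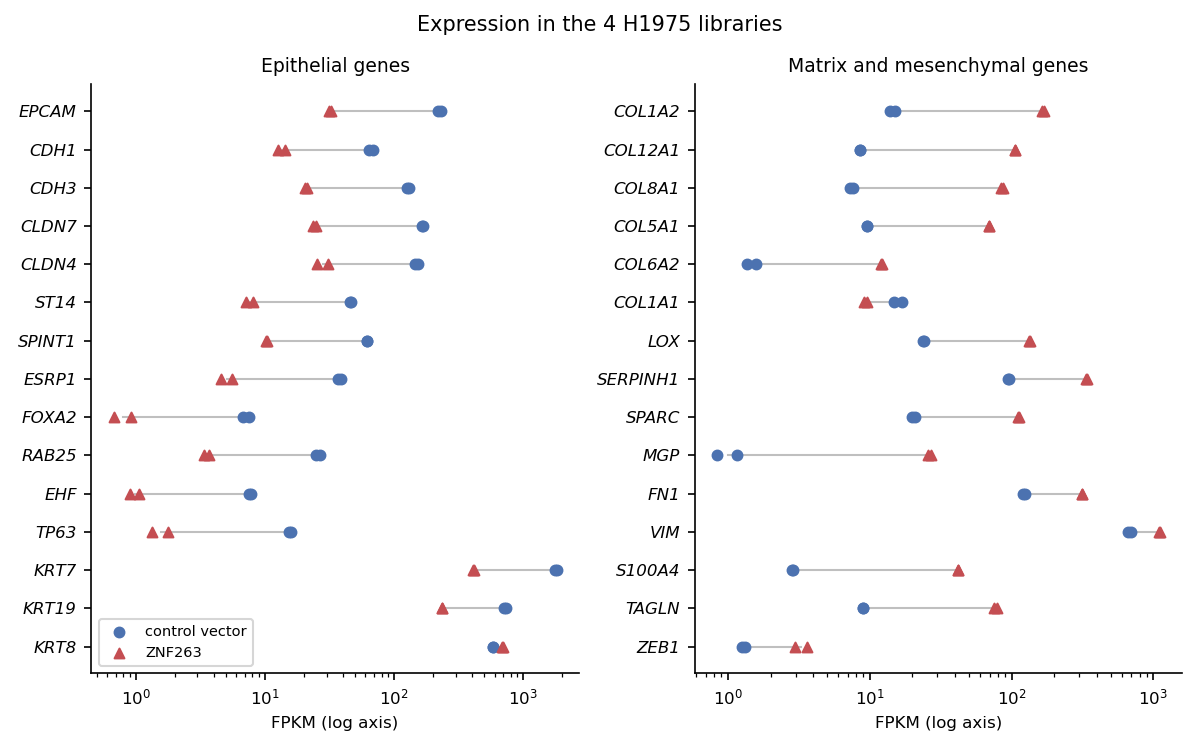
FPKM (log axis) of 15 epithelial genes and 15 matrix and mesenchymal genes in each control (circles) and ZNF263 (triangles) library, joined by a line per gene. The libraries of a group nearly coincide, 14 of the 15 epithelial genes lie lower with ZNF263 (KRT8 is the exception), and 14 of the 15 in the second panel lie higher (COL1A1 is the exception).

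Regulators of the epithelial state fell as well: all 19 tested members of a list of 21 transcription and splicing factors and related genes fell, 15 of them by a log2 of 1 or more, with a median of -1.33. TP63, a squamous and basal cell transcription factor, stood at 15.3 and 15.9 FPKM in the control libraries and at 1.79 and 1.35 FPKM with ZNF263 and fell by 2.70 ± 0.0938 in log2 units (SE, limma adjusted p = 6.22e-08). ESRP1, which directs the choice of epithelial exons, went from 37.00 and 38.8 to 5.52 and 4.60 FPKM and fell by 2.69 (SE 0.0775, limma adjusted p = 2.36e-08), and its relative ESRP2 fell by 1.08. The libraries of the vectors stood apart for each of these. RAB25 fell by 2.56, EHF, an epithelial ETS factor, fell by 2.13, and FOXA2, a forkhead factor of foregut epithelium, fell by 2.18. GRHL1, GRHL2 and GRHL3, grainyhead factors that activate junction genes, fell (-1.56, -1.40 and -1.26, and -0.87 less its neighbours for GRHL2). OVOL1 and OVOL2, which oppose ZEB1, fell (-1.26 and -1.33). KLF5 fell by 0.28 (-0.46 less its neighbours), the smallest fall of the list.

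Keratins, the intermediate filaments of epithelia, divided. Of 18 written, 10 were tested, 7 fell and 3 rose. KRT7 stood at 1808 and 1755 FPKM in the control libraries and at 405 and 418 FPKM with ZNF263 and fell by 2.11 ± 0.0287 in log2 units (SE, limma adjusted p = 1.05e-09), one of the 5 genes with the largest losses in mean FPKM. KRT19 went from 709 and 728 to 233 and 237 FPKM and fell by 1.61. KRT8, the other main keratin of simple epithelia, rose by 0.24 (0.78 less its neighbours), while its partner KRT18 fell by 0.23 and stood 0.34 higher less its neighbours, which turns the direction. With quantile normalization KRT18 stood at -0.10. KRT8 and KRT18 have many processed pseudogenes, and how the authors' counting treated shared reads is not given in the sources used here. KRT80 and KRT81 fell (-1.73 and -1.59, or -1.14 and -1.05 less their neighbours on chromosome 12). KRT75, a hair follicle keratin, fell by 2.73, from 6.02 and 7.45 to 0.0951 and 0.229 FPKM.

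Basement membrane genes mostly fell. Of 12 tested laminins and receptors, 8 fell and 4 rose (median -1.14). LAMA3, a chain of the laminin that anchors skin and airway epithelium, stood at 16.95 and 18.2 FPKM in the control libraries and at 4.65 and 4.92 FPKM with ZNF263 and fell by 1.68 ± 0.0672 in log2 units (SE, limma adjusted p = 1.27e-07), and LAMB3, another chain, fell by 1.25 (-0.83 less its neighbours). ITGB4 and ITGA6, the integrin that binds this laminin in hemidesmosomes, fell (-2.27 and -1.48), and COL17A1, their transmembrane collagen partner, fell by 2.70, from 135 and 128 to 19.1 and 19.4 FPKM. All of these lay lower in both ZNF263 libraries than in either control. LAMB2 and the matrix receptor DAG1, dystroglycan, rose by 1.14 and 1.05. Among 14 tested integrins 5 rose and 6 fell. ITGA2, the collagen receptor of epithelia, fell by 1.51, ITGB6 fell by 1.47, and ITGA11, a collagen receptor of stromal cells, rose by 1.73, from 0.343 and 0.270 to 3.54 and 3.12 FPKM.

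Collagen chains moved the other way. Of 34 written, 16 were tested and 18 lay below the filter in these libraries, and 12 of those tested rose and 4 fell, with a median of 1.003 and 8 rises by a log2 of 1 or more. COL1A2, the second chain of type I collagen, lies at chromosome 7 from 94394561 to 94431232 (plus strand) and stood at 14.01 and 15.1 FPKM in the control libraries and at 169 and 164 FPKM with ZNF263. It rose by 3.43 ± 0.0468 in log2 units (SE, limma adjusted p = 1.05e-09), but COL1A1, the chain it assembles with, fell by 0.71, from 14.9 and 16.9 to 9.52 and 9.05 FPKM. COL12A1, a collagen that coats other fibrils, lies at chromosome 6 from 75084326 to 75206051 (minus strand), stood at 8.52 and 8.53 FPKM in the control libraries and at 106 and 105 FPKM with ZNF263, and rose by 3.49 ± 0.0436 in log2 units (SE, limma adjusted p = 8.73e-10). COL8A1 and COL5A1 rose by 3.37 and by 2.74, from 7.41 to 85.8 and from 9.55 to 69.3 FPKM (means of 2 libraries). COL6A2 and COL6A1, neighbours on chromosome 21, rose by 2.41 and by 1.76. COL4A5 and COL4A6, basement membrane chains side by side on the X chromosome, rose by 0.96 and by 1.06, but only by 0.15 and 0.22 less their neighbours, and COL4A5 then lost the call (limma adjusted p = 0.197). COL3A1 and COL6A3 lay below the filter. The fibroblast markers PDGFRA, DCN, FAP and THY1 stood at or below 0.0453 FPKM in every library. LUM, another such marker, stood at 1.89 and 1.79 FPKM in the control libraries.

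Enzymes that mature collagen rose with the chains: of 21 tested, 17 rose, 1 fell and 3 did not pass (median 0.55). LOX, lysyl oxidase, which cross-links collagen and elastin, stood at 24.2 and 23.8 FPKM in the control libraries and at 135 and 133 FPKM with ZNF263 and rose by 2.44 ± 0.0382 in log2 units (SE, limma adjusted p = 1.39e-09). SERPINH1, the collagen chaperone HSP47, went from 94.5 and 96.8 to 339 and 333 FPKM and rose by 1.80. Both were higher in each ZNF263 library than in either control. P3H3 and P3H1, prolyl 3-hydroxylase family members, rose by 1.79 and by 1.09, BMP1, the procollagen C-proteinase, rose by 1.35, LOXL2 rose by 1.21, and the lysyl hydroxylase PLOD1 rose by 0.89. COLGALT1, a collagen galactosyltransferase, rose by 1.71, or by 0.93 less its neighbours on chromosome 19. P4HA1, a prolyl 4-hydroxylase chain, was the 1 member that fell, by 0.60 (-0.39 less its neighbours).

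Other matrix proteins rose more often than they fell, 13 against 5 of 20 tested, with 2 not passing. MGP, matrix Gla protein, an inhibitor of calcification, stood at 1.16 and 0.836 FPKM in the control libraries and at 26.9 and 25.97 FPKM with ZNF263 and rose by 3.78 ± 0.0893 in log2 units (SE, limma adjusted p = 8.69e-09). SPARC, a collagen-binding glycoprotein, went from 20.7 and 19.8 to 112 and 111 FPKM and rose by 2.40. FN1, fibronectin, rose by 1.35, FBLN2 and LTBP1 rose by 1.78 and by 1.61, and TNC, tenascin C, rose by 0.81. THBS1, thrombospondin 1, fell by 0.78 (-0.52 less its neighbours), and the fibroblast proteins LUM and FBLN1 fell (-1.33 and -1.38). Among 24 tested genes of heparan sulfate, the sulfated sugar chain that binds growth factors, 13 rose and 7 fell. HSPG2, the basement membrane proteoglycan perlecan, rose by 2.53, from 3.66 and 3.85 to 26.2 and 26.6 FPKM, and the core proteins SDC2 and SDC3 rose by 1.89 and by 1.70, whereas SDC4 fell by 0.82. The chain polymerase EXT1 on chromosome 8 fell by 1.04 (-0.53 less its neighbours).

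Transcription factors of the epithelial-mesenchymal transition did not move as one. Of 15 written, 7 were tested, 4 rose, 2 fell and 1 did not pass. ZEB1 was measured at 1.25 and 1.33 FPKM in the control libraries and at 2.97 and 3.61 FPKM with ZNF263 and ZEB2 at 0.175 and 0.193 FPKM in the control libraries and at 1.81 and 1.85 FPKM with ZNF263. Both are repressors of CDH1, both stood higher in each ZNF263 library, and they rose by 0.90 (SE 0.0980, limma adjusted p = 4.88e-05) and by 1.26 (SE 0.0899, limma adjusted p = 3.79e-06). With a pseudocount of 0.1 in place of 1, ZEB2 rose by 2.77. FOXC1, a forkhead factor on chromosome 6, rose by 0.99, or by 0.53 less its neighbours. SNAI2, Slug, stood at 41.7 and 41.95 FPKM in the control libraries and at 23.3 and 24.5 FPKM with ZNF263 and fell by 0.78 ± 0.0462 in log2 units (SE, limma adjusted p = 1.21e-06). SNAI1, Snail, stood at 22.3 and 21.5 FPKM in the control libraries and at 21.6 and 21.4 FPKM with ZNF263 (change -0.028, limma adjusted p = 0.632), with libraries that overlapped, and was called higher less its neighbours (0.15, adjusted p = 0.0275). HIC1 had a change of 0.25 (adjusted p = 0.0329), which lost the call with no filter (0.25, 0.102) and less its neighbours (0.20, 0.0817). It also lost the call without control 2 (0.17) and without ZNF263 library 1 (0.18). SNAI3, TWIST1, TWIST2, PRRX1, PRRX2, FOXC2 and TCF4 lay below the filter, and TBXT had no value.

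The cytoskeletal and adhesion genes commonly used as mesenchymal markers were mixed: 10 of 19 tested rose, 7 fell and 2 did not pass (median 0.28, or 0.057 less the neighbours). VIM, vimentin, stood at 691 and 665 FPKM in the control libraries and at 1112 and 1105 FPKM with ZNF263 and rose by 0.71 ± 0.0281 in log2 units (SE, limma adjusted p = 1.23e-07), or by 0.44 less its neighbours. TAGLN, an actin-binding protein of smooth muscle and activated fibroblasts, went from 8.98 and 8.92 to 79.2 and 74.9 FPKM and rose by 2.97. S100A4, a calcium-binding protein of motile cells, went from 2.89 and 2.84 to 42.00 and 42.2 FPKM and rose by 3.48, and CDH11, a mesenchymal cadherin, rose by 1.98. Control and ZNF263 libraries did not overlap in these 4, as in 85.5% of all genes tested. CNN2, a calponin, and NT5E, the ectonucleotidase CD73, fell (-1.01 and -1.12), ACTN1 and CALD1 stood at -0.0026 and -0.09 (adjusted p = 0.950 and 0.0763), and CDH2, N-cadherin, lay below the filter. ACTN1 was called higher less its neighbours (0.32, adjusted p = 6.51e-05) and with quantile normalization (0.085, 0.0278), and CALD1 lower with median-of-ratios scaling (-0.10, 0.0461).

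Proteases and guidance molecules changed in both directions. Of 22 tested matrix proteases and inhibitors, 9 rose and 9 fell. MMP1, interstitial collagenase, stood at 22.1 and 19.4 FPKM in the control libraries and at 1.60 and 1.72 FPKM with ZNF263 and fell by 3.03 ± 0.0818 in log2 units (SE, limma adjusted p = 1.81e-08). PLAU, urokinase, and its receptor PLAUR fell (-2.13 and -1.31), whereas PLAT, the tissue-type plasminogen activator on chromosome 8, rose by 2.30, from 5.17 and 6.16 to 32.4 and 31.2 FPKM. MMP24, a membrane-type protease, rose by 2.39, and the inhibitors TIMP2 and TIMP4 rose by 1.25 and by 1.60. ADAMTS9, which cleaves proteoglycans, stood at 2.13 and 1.98 FPKM in the control libraries and at 21.7 and 22.1 FPKM with ZNF263 and rose by 2.91. Of 25 tested axon guidance genes 10 rose and 11 fell: the receptors ROBO1 and PLXND1 rose by 2.30 and by 2.17, and SEMA7A and NTN4 fell (-1.65 and -1.73).

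EGFR itself fell, and its libraries did not overlap. It was measured at 54.3 and 54.9 FPKM in the control libraries and at 26.3 and 27.03 FPKM with ZNF263, and it fell by 1.01 ± 0.0424 in log2 units (SE, limma adjusted p = 1.71e-07). Of 11 tested ERBB receptors, ligands and inhibitors (16 written), 7 fell, 3 rose and 1 did not pass. TGFA, a high-affinity EGFR ligand, stood at 28.6 and 27.1 FPKM in the control libraries and at 5.05 and 4.11 FPKM with ZNF263 and fell by 2.37 (SE 0.0843, limma adjusted p = 7.02e-08), AREG, amphiregulin, fell by 1.62, and EREG, epiregulin, fell by 0.66. HBEGF, another ligand, had a change of 0.081 (limma adjusted p = 0.346). ERBB3, the partner receptor that couples to PI3K, went from 6.30 and 6.73 to 0.868 and 0.965 FPKM and fell by 1.97, and ERBB2 fell by 0.30 (-0.12 less its neighbours, where it lost the call with adjusted p = 0.119). LRIG1, which promotes degradation of ERBB receptors, went from 2.04 and 2.16 to 14.3 and 14.1 FPKM and rose by 2.29. The ERBB3 ligand NRG1 rose by 1.07, and ERRFI1, a feedback inhibitor of the EGFR kinase, fell by 0.61.

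Readouts of MAPK signalling fell in part: 11 of 19 tested fell and 8 rose, and all 6 that changed by a log2 of 1 or more fell. CCND1, cyclin D1, which carries cells out of G1, lies at chromosome 11 from 69641087 to 69654474 (plus strand), stood at 207 and 202 FPKM in the control libraries and at 52.6 and 53.5 FPKM with ZNF263, and fell by 1.93 ± 0.0347 in log2 units (SE, limma adjusted p = 2.09e-09). FOSL1, an AP-1 subunit, and PHLDA1 fell (-1.54 and -1.65). The ERK phosphatases DUSP5 and DUSP6 fell (-1.62 and -1.11), and the ETS factors ETV4 and ETV5 fell (-1.32 and -0.97). MYC, which the same cascade also stabilises, rose by 0.56, the early gene EGR1 rose by 0.89, and IER3 on chromosome 6 rose by 0.79 (0.29 less its neighbours). The direction therefore differed among genes that ERK can induce.

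**Figure D3:**
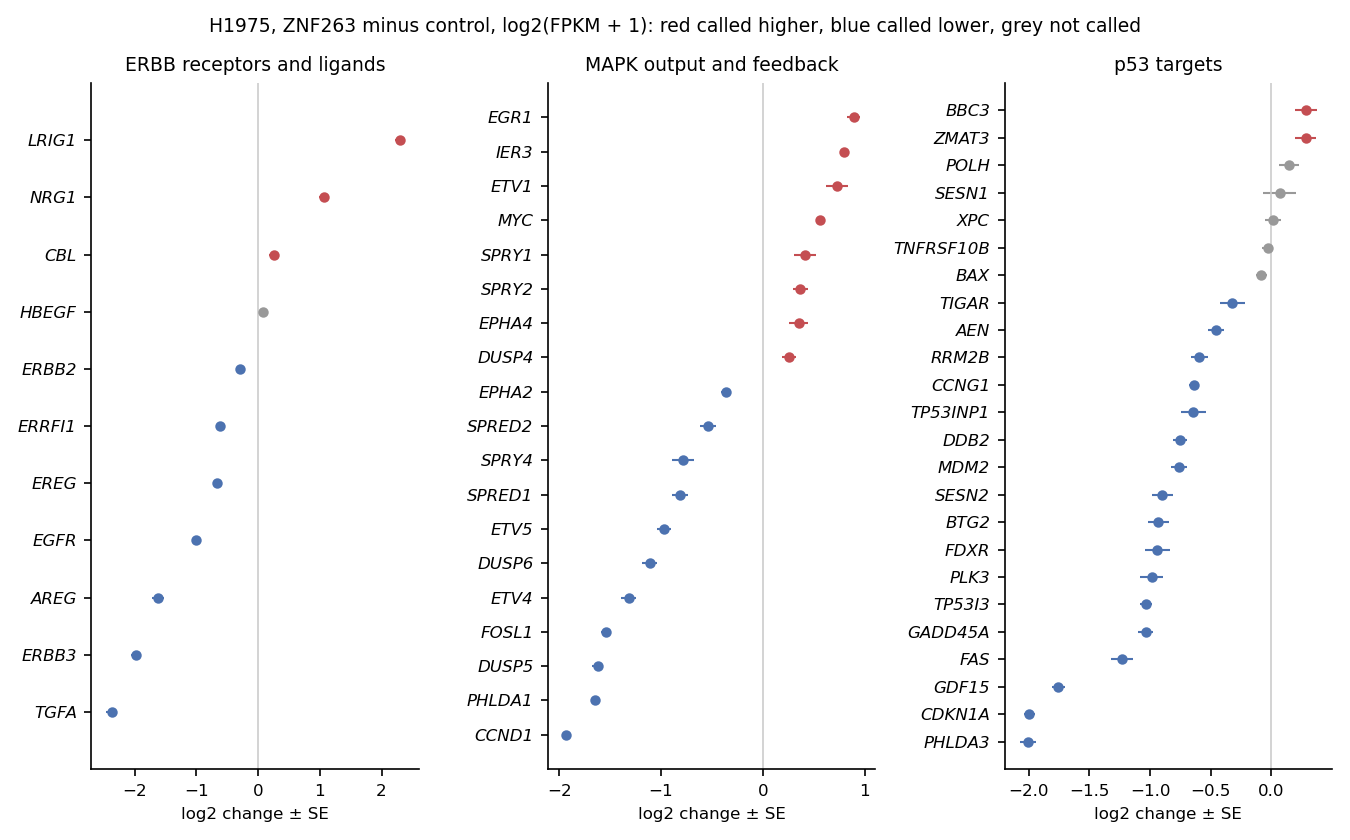
Log2 change (ZNF263 minus control, on log2(FPKM + 1)) ± SE of tested members of 3 lists in H1975, ordered by size. In the ERBB panel TGFA and LRIG1 mark the ends, CCND1 lies lowest in the MAPK panel, and 17 of 24 p53 targets are called lower.

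Other receptor tyrosine kinases, which can stand in for EGFR in drug-tolerant cells, fell more often than they rose (10 against 6 of 18 tested). Among all genes tested 34.8% were called lower and 35.7% higher, so only the falls were more frequent than elsewhere. MERTK, a receptor of the AXL family, stood at 10.8 and 11.6 FPKM in the control libraries and at 0.909 and 1.12 FPKM with ZNF263 and fell by 2.60 ± 0.0866 in log2 units (SE, limma adjusted p = 5.12e-08). AXL fell by 0.75, and their ligand GAS6 rose by 1.10. MET, the HGF receptor, fell by 1.09, from 90.9 and 90.6 to 40.5 and 43.7 FPKM. FGFR1 rose by 1.34, PDGFRB and ROR1 rose by 1.22 and by 1.11, both from means under 1 FPKM in the controls, and EPHB2 fell by 0.92. In the JAK and STAT5 list 8 of 18 tested rose and 9 fell. STAT5A stood at 1.503 and 1.79 FPKM in the control libraries and at 2.56 and 2.34 FPKM with ZNF263 and rose by 0.38 ± 0.0939 in log2 units (SE, limma adjusted p = 0.00574), or by 0.64 less its neighbours, and its paralog STAT5B had a change of -0.25 (adjusted p = 0.00619), which was 0.0093 less its neighbours (adjusted p = 0.908). JAK1 rose by 0.73, the receptor chain IL6R fell by 1.32, the feedback genes SOCS2 and SOCS3 fell (-0.88 and -0.73), and BCL2L1, BCL-XL, fell by 1.27, from 123 and 128 to 52.4 and 50.03 FPKM.

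Targets of p53, the stress-induced tumour suppressor, fell: 17 of 24 tested, with 2 up and 5 not passing (median -0.70). CDKN1A, the CDK inhibitor p21, lies at chromosome 6 from 36676460 to 36687339 (plus strand), stood at 68.2 and 65.6 FPKM in the control libraries and at 15.8 and 16.1 FPKM with ZNF263, and fell by 1.999 ± 0.0453 in log2 units (SE, limma adjusted p = 7.19e-09). PHLDA3, an inhibitor of AKT, and GDF15, a stress cytokine, fell (-2.01 and -1.76), the death receptor FAS fell by 1.23, and MDM2, which degrades p53, fell by 0.76. In each of these 5 genes both ZNF263 libraries lay below both controls, where the vectors did not overlap in 85.5% of all genes tested. BAX and TNFRSF10B, other p53 targets, had changes of -0.082 and -0.03 (adjusted p = 0.161 and 0.581). Less their neighbours both were called lower (-0.19 and -0.18, adjusted p = 0.00905 and 0.0109), as was BAX without control 2 (-0.14, 0.0311). Among G1 regulators 8 of 15 fell and 4 rose, with CDKN2C, the CDK4/6 inhibitor p18, up by 1.26 and RB1 by 0.72. In the BCL2 family 4 of 12 rose and 6 fell: BIK, a pro-apoptotic BH3-only protein, fell by 1.41, BID, another, rose by 1.32, and MCL1, an anti-apoptotic member, fell by 0.19 (-0.37 less its neighbours).

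Interferon response genes fell. Of 34 written, 33 were tested, 28 fell, 4 rose and 1 did not pass, with a median of -0.92 and 14 falls by a log2 of 1 or more. IFI27 lies at chromosome 14 from 94104836 to 94116698 (plus strand), stood at 665 and 781 FPKM in the control libraries and at 54.4 and 46.6 FPKM with ZNF263, and fell by 3.81 ± 0.0831 in log2 units (SE, limma adjusted p = 5.57e-09), a 14.3-fold difference of the means. IFI6 went from 198 and 243 to 38.1 and 40.5 FPKM and fell by 2.45. The ZNF263 libraries lay below the controls without overlap for both. OAS1, OAS2 and OAS3, sensors of double-stranded RNA, fell (-2.30, -2.16 and -1.63), and the antiviral GTPase MX1 fell by 1.85. Of the factors that drive these genes, IRF7 and IRF9 fell (-2.02 and -1.43), and STAT2 fell by 0.93 (-0.50 less its neighbours). IFITM1, a membrane protein that restricts viral entry, fell by 2.40, while IFITM2 and IFITM3 rose by 0.96 and by 0.68, and reads may be split uncertainly among these near-identical genes. BST2, tetherin, rose by 0.66, but stood at -0.12 less its neighbours on chromosome 19 (adjusted p = 0.157).

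Class I antigen presentation genes were higher, 13 of 17 tested against 2 lower, and most of them lie in the segment of chromosome 6 whose neighbours also rose. HLA-B, a class I heavy chain, stood at 151 and 159 FPKM in the control libraries and at 540.2 and 530.0 FPKM with ZNF263 and rose by 1.78 (SE 0.0340, limma adjusted p = 2.82e-09), a change not moved by more than 1.5 times less its neighbours. HLA-C rose by 1.05, or by 0.56 less its neighbours, and reads may be split uncertainly between these alike genes. The peptide transporter TAP1 and the immunoproteasome subunit PSMB8 rose by 0.50 and by 0.50, but stood at -0.12 (adjusted p = 0.0627) and -0.13 (adjusted p = 0.0429) less their neighbours, the latter a call in the other direction. NLRC5, a transactivator of class I genes on chromosome 16, rose by 1.05. The median of the list was 0.50, and 0.15 less the neighbours.

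Chemokines and cytokines rose more often than they fell (17 against 7 of 27 tested, median 0.71, or 0.29 less the neighbours). CCL2, which attracts monocytes, lies at chromosome 17 from 34255218 to 34257203 (plus strand), stood at 3.68 and 4.36 FPKM in the control libraries and at 68.3 and 63.9 FPKM with ZNF263, and rose by 3.74 ± 0.0735 in log2 units (SE, limma adjusted p = 3.20e-09). CXCL6 and CXCL1, ligands of neutrophil receptors, rose by 2.67 and by 2.19, and CXCL8, interleukin 8, rose by 1.57, from 7.91 and 11.2 to 31.01 and 28.7 FPKM. CSF1, the macrophage growth factor, went from 6.15 and 7.62 to 46.6 and 45.98 FPKM and rose by 2.59, and IL32 rose by 2.44. The ZNF263 libraries were the higher ones in each. IL18 fell by 2.47, IL1A fell by 1.37, and IL1B had a change of -0.02 (adjusted p = 0.908). Among NF-kB feedback genes NFKBIA and BIRC3 rose by 0.87 and by 0.999, while TNFAIP3 and NFKB2 fell (-0.34 and -0.47). C3 and CFB, complement components of the alternative pathway, rose by 3.22 and by 2.10. C3 stood at 49.7 and 53.1 FPKM in the control libraries and at 489 and 485 FPKM with ZNF263, so its libraries did not overlap. PTX3, a secreted pattern recognition protein, stood at 12.05 and 10.9 FPKM in the control libraries and at 98.4 and 100.5 FPKM with ZNF263 and rose by 3.01 ± 0.0545 in log2 units (SE, limma adjusted p = 2.11e-09), and CHI3L1, a secreted chitinase-like protein, went from 0.382 and 0.502 to 18.01 and 13.2 FPKM and rose by 3.51.

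**Figure D4:**
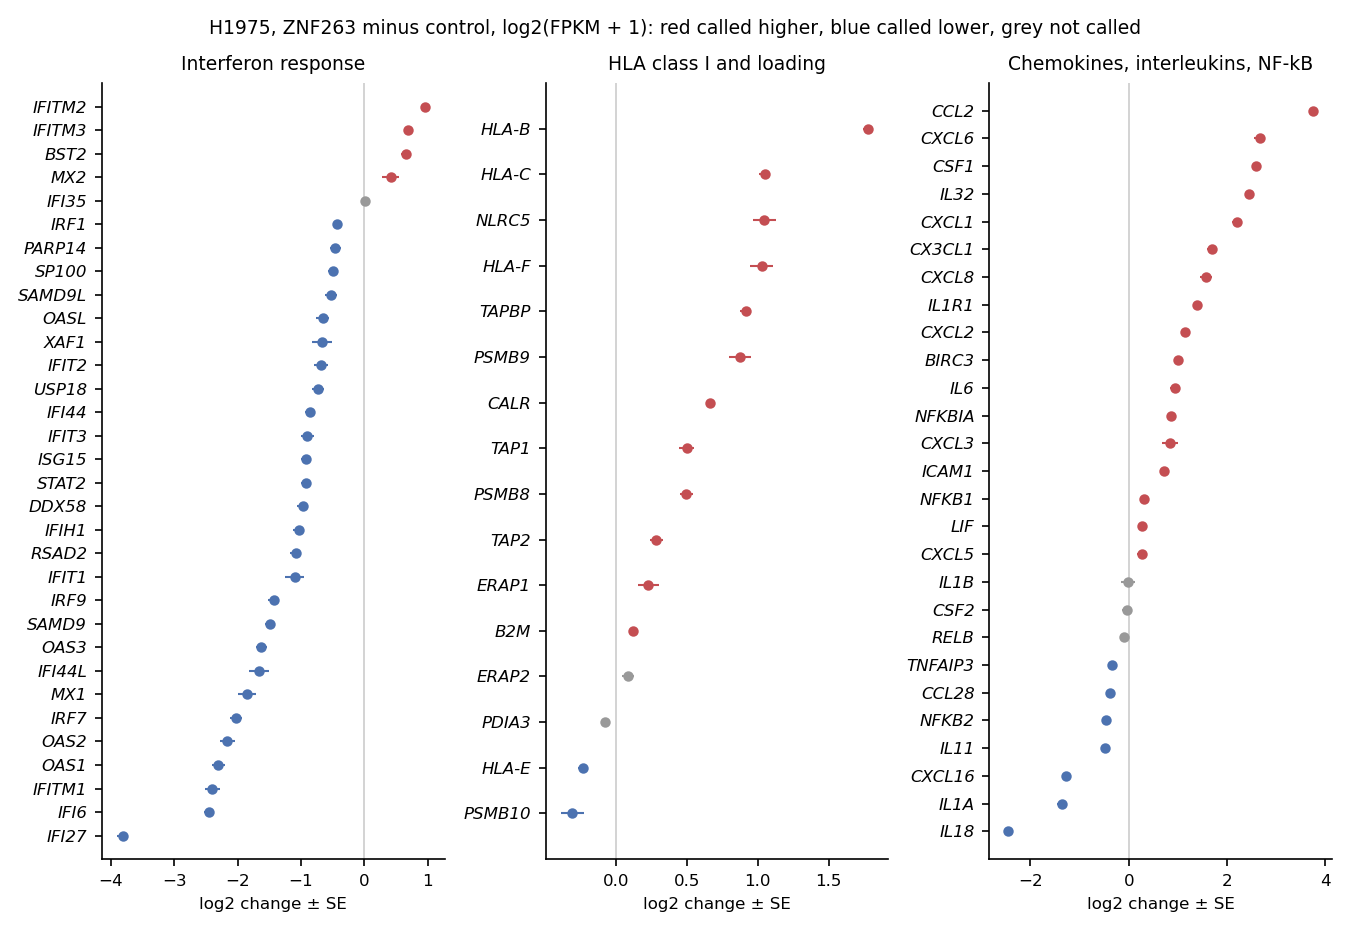
Log2 change (ZNF263 minus control, on log2(FPKM + 1)) ± SE of tested interferon response, class I presentation and cytokine genes in H1975, ordered by size. In the lists, of which 1 interferon and 1 class I gene are not drawn, 28 of 33 interferon genes are called lower, 13 of 17 class I genes and 17 of 27 cytokine and NF-kB genes are called higher.

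Growth factor pathways of the TGF-beta family were mixed, with 13 of 31 tested genes up and 10 down. BMP4 stood at 1.82 and 1.70 FPKM in the control libraries and at 23.4 and 23.2 FPKM with ZNF263 and rose by 3.14 ± 0.0673 in log2 units (SE, limma adjusted p = 5.36e-09), and its antagonist NOG, noggin, rose by 1.70. FSTL1, a secreted binding protein of the same family, rose by 2.25. The receptor TGFBR1 rose by 0.89, while PMEPA1, induced by TGF-beta in many cells, fell by 1.55. SMAD3, which carries the signal, fell by 0.71, and SMAD4 and SMAD7 stood at 0.11 and -0.035 (adjusted p = 0.226 and 0.712). Among YAP/TEAD genes 11 of 22 fell and 6 rose, with the targets ANKRD1 and AMOTL1 lower (-1.53 and -1.53). RGS4, a regulator of G protein signalling, went from 2.18 and 1.72 to 25.8 and 24.3 FPKM and rose by 3.15.

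Prostaglandin and adenosine genes included some of the largest changes. PTGS2, cyclooxygenase 2, stood at 97.4 and 91.1 FPKM in the control libraries and at 6.44 and 6.61 FPKM with ZNF263 and fell by 3.66 ± 0.0518 in log2 units (SE, limma adjusted p = 1.05e-09), while PTGES, the synthase that acts after it, rose by 0.82. ADORA2A, an adenosine receptor, stood at 1.14 and 0.815 FPKM in the control libraries and at 19.7 and 21.2 FPKM with ZNF263 and rose by 3.44 (SE 0.0942, limma adjusted p = 1.85e-08), ADORA2B fell by 1.501, and ENTPD3, which breaks down extracellular ATP, fell by 2.92. In both PTGS2 and ADORA2A the vectors stood apart without overlap. The list as a whole had 5 rises and 6 falls among 14 tested. Of 11 tested S100 calcium-binding proteins 4 rose and 6 fell. S100A2, an epithelial member, stood at 682 and 721 FPKM in the control libraries and at 84.6 and 82.4 FPKM with ZNF263 and fell by 3.06, the opposite of S100A4 and S100A3 beside it on chromosome 1, which rose by 3.48 and by 2.52.

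Stress and metabolic pathways changed gene by gene. Of 23 tested genes of the unfolded protein response 15 rose and 3 fell. HSPA5, the main chaperone of the endoplasmic reticulum, went from 214 and 216 to 330.2 and 326 FPKM and rose by 0.61, and XBP1, a transcription factor of that response, rose by 1.47, or by 0.93 less its neighbours on chromosome 22. The ATF4 list, which serves amino acid supply, had 13 rises and 11 falls among 24: CTH, cystathionine gamma-lyase, rose by 1.89, PYCR1 of proline synthesis rose by 1.09, and DDIT3, the stress factor CHOP, fell by 1.53. NRF2 targets fell more often (13 of 22, with 5 up). HMOX1, heme oxygenase 1, stood at 146 and 135 FPKM in the control libraries and at 22.3 and 25.8 FPKM with ZNF263 and fell by 2.50 ± 0.0665 in log2 units (SE, limma adjusted p = 1.65e-08). AKR1C3, an aldo-keto reductase, went the other way, from 6.08 and 6.03 to 71.1 and 68.7 FPKM (3.33), its near copy AKR1C2 fell by 1.44, and reads may be split uncertainly between them. CP, ceruloplasmin, and SLC40A1, the iron exporter ferroportin, fell (-1.83 and -1.30). Of 15 tested aldehyde dehydrogenase and drug efflux genes 8 rose, 2 fell and 5 did not pass (median 0.19). ALDH1A3 was the 1 member of that list that fell by a log2 of 1 or more. ALDH1A3, a retinaldehyde dehydrogenase used as a stem cell marker, stood at 70.9 and 69.5 FPKM in the control libraries and at 4.95 and 5.70 FPKM with ZNF263 and fell by 3.50 ± 0.0644 in log2 units (SE, limma adjusted p = 2.28e-09). Of the drug efflux pumps, ABCC1 had a change of -0.001 (adjusted p = 0.989), or -0.22 less its neighbours (adjusted p = 0.0112), and ABCB1 lay below the filter.

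Hypoxia and glycolysis genes fell in 15 and rose in 8 of 29 cases. CA9, a carbonic anhydrase induced by hypoxia, rose by 2.54, from 14.5 and 17.3 to 100.04 and 94.3 FPKM, and EGLN3, a prolyl hydroxylase induced likewise, rose by 1.53, but NDRG1 and BNIP3, also hypoxia-induced, fell (-0.91 and -0.74). The glucose transporter SLC2A1 and hexokinase HK2 fell (-0.57 and -0.85). Cholesterol and fatty acid synthesis had 11 rises and 10 falls among 26, 1 of them (ELOVL6, a fatty acid elongase, 1.18) by a log2 of 1 or more. Respiratory chain subunits had 15 and 12 among 35, none by that much.

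Proliferation genes changed by small amounts. AURKA, the mitotic kinase Aurora A, lies at chromosome 20 from 56369389 to 56392337 (minus strand), stood at 48.7 and 46.01 FPKM in the control libraries and at 36.8 and 36.2 FPKM with ZNF263, and fell by 0.37 ± 0.0453 in log2 units (SE, limma adjusted p = 1.10e-04), which left -0.19 less its neighbours (adjusted p = 0.00658). Of 30 tested mitotic genes 13 rose, 6 fell and 11 did not pass, and 0 changed by a log2 of 1 or more. ANLN, anillin, and KIF20A, both of cytokinesis, rose by 0.68 (0.43 less its neighbours) and by 0.66, CDC20 rose by 0.54, and AURKB, the kinase of the chromosomal passenger complex, fell by 0.27. In DNA replication 18 of 36 rose and 9 fell, also with 0 by a log2 of 1 or more. The subunits MCM3 and MCM6 of the replicative helicase rose by 0.51 and by 0.54, and TK1 of nucleotide salvage fell by 0.47. Of 32 cytosolic ribosomal protein genes 16 rose and 10 fell (median 0.093), several with their chromosome: RPL30 on chromosome 8 fell by 0.76 (-0.20 less its neighbours) and RPS18 on chromosome 6 rose by 0.63 (0.017 less its neighbours, adjusted p = 0.591). Processed pseudogenes make the counts of ribosomal protein genes uncertain.

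By absolute level, AKR1B1, aldose reductase, which reduces glucose to sorbitol, gained most. It lies at chromosome 7 from 134442350 to 134459284 (minus strand), stood at 421 and 447 FPKM in the control libraries and at 2798 and 2602 FPKM with ZNF263, and rose by 2.63 ± 0.0407 in log2 units (SE, limma adjusted p = 1.37e-09). Gains in mean FPKM among the next largest were those of S100A6 (1179), TMSB4X, the actin-binding peptide thymosin beta 4 (849), and RPS18 (802). TMSB4X on the X chromosome changed by 0.47 and by 0.29 less its neighbours. MT2A, a metallothionein that binds zinc and copper, lost most (-1799 FPKM). It stood at 2846 and 2762 FPKM in the control libraries and at 1033 and 977 FPKM with ZNF263 and fell by 1.48 ± 0.0319 in log2 units (SE, limma adjusted p = 5.36e-09). KRT7 (-1370.3), FTH1, the ferritin heavy chain (-867), IFI27 (-673) and RPL30 (-631) followed. A difference in FPKM is relative to each library's total, so these genes also bear on the values of others.

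The largest fall on the log2 scale was that of RNASE7, an antimicrobial ribonuclease of epithelia, at chromosome 14 from 21042226 to 21044234 (plus strand). It stood at 36.4 and 35.6 FPKM in the control libraries and at 1.47 and 0.946 FPKM with ZNF263 and fell by 4.08 ± 0.106 in log2 units (SE, limma adjusted p = 1.43e-08), a difference in which neither library of a group came near the other group. SPINK1, a trypsin inhibitor, went from 35.7 and 32.8 to 1.86 and 1.35 FPKM and fell by 3.76. MYEOV fell by 3.19, CBLC, an epithelial ubiquitin ligase of the CBL family, fell by 2.96, and PKIB, an inhibitor of protein kinase A, fell by 2.74. Of the 8 tested mucins and secreted airway proteins 4 rose and 4 fell, with MUC1 and AGR2 lower (-1.40 and -1.74) and LCN2 and TFF1 up by 1.58 and 1.74 from means under 1 FPKM. Among 17 tested developmental transcription factors 9 rose and 4 fell, with HOXA10, GATA6 and NR2F1 up by 1.53, 1.20 and 1.17.

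Markers of the tissue and of other cell types were checked in the same libraries. The control cells expressed epithelial markers (EPCAM, CDH1 and KRT7, above). Of 20 lung lineage markers 4 were tested. NKX2-1, the lineage factor of many lung adenocarcinomas, stood at 4.70 and 6.09 FPKM in the control libraries and at 4.86 and 5.09 FPKM with ZNF263 (change -0.09, limma adjusted p = 0.470), with overlapping libraries. It was called lower less its neighbours (-0.39, adjusted p = 0.0112) and without control 1 (-0.25, 0.0427). NAPSA and the surfactant genes lay below the filter, and AQP4, SFTA2 and SCGB3A2 were at 0 in all 4 libraries. The list summed to between 28.03 and 28.6 FPKM in the controls and between 23.2 and 23.4 FPKM with ZNF263. All 3 tested squamous markers of 14, TP63, SERPINB5 and IVL, fell (sums of 60.4 to 61.6 and of 8.62 to 10.3 FPKM), and KRT5, DSG3 and DSC3 lay below the filter.

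Most stromal and blood cell markers lay below the filter. Of 14 fibroblast markers 4 were tested, and of these PDGFRB rose and 3 fell, with a list sum of 22.1 to 24.2 FPKM in the controls and 12.3 to 12.6 with ZNF263. Among fibroblast markers below the filter, PDGFRA, DCN and THY1 reached at most 0.0216, 0.00891 and 0.00523 FPKM in any library. Of 12 smooth muscle and pericyte markers 4 were tested, and their sum went from between 27.8 and 27.96 to between 106 and 111 FPKM, mostly through TAGLN. MYH11 and DES reached at most 0.177 and 0.0956 FPKM. Of 14 endothelial markers ESAM was tested (-1.46) and EMCN was at 0 in all 4 libraries (sums of 2.43 to 3.50 and 0.419 to 0.448 FPKM), and of 8 mesothelial markers CALB2 (1.88, sums of 15.97 to 17.7 and 64.2 to 64.8 FPKM). Of 14 neuroendocrine markers 3 were tested, SCG2, a granule protein, rose by 2.73, and SCG3 was at 0 in all 4 libraries (sums of 40.5 to 44.02 and 33.8 to 34.3 FPKM). Of 18 immune markers 5 were tested (sums of 105 to 106 and 92.9 to 99.6 FPKM, mostly CD68). CD14, a receptor for lipopolysaccharide, rose by 2.40, and CD79A, a B cell receptor component, fell by 2.76, from 9.86 and 10.8 to 0.628 and 0.713 FPKM, while PTPRC, the pan-leukocyte marker, reached at most 0.00465 FPKM. The part of these markers in the other changes was not tested.

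Members of the KRAB co-repressor and DNA methylation machinery changed in both directions, with 12 of 24 tested up, 8 down and 4 not passing. TRIM28, the co-repressor that KRAB domains bind, stood at 362 and 362 FPKM in the control libraries and at 202 and 196 FPKM with ZNF263 and fell by 0.86 (SE 0.0300, limma adjusted p = 6.22e-08), but stood at -0.25 less its neighbours at the end of chromosome 19. DNMT1, the maintenance DNA methyltransferase, lies at chromosome 19 from 10133345 to 10231286 (minus strand), stood at 69.03 and 67.9 FPKM in the control libraries and at 111 and 109 FPKM with ZNF263, and rose by 0.68 ± 0.0353 in log2 units (SE, limma adjusted p = 5.71e-07), or by 0.26 less its neighbours. The libraries of the vectors did not overlap for either. SETDB1, which methylates histone H3 on TRIM28's behalf, rose by 0.39, CBX5, a heterochromatin protein, rose by 0.64 (1.12 less its neighbours), and DNMT3B, a de novo methyltransferase, fell by 0.53. EZH2, a histone methyltransferase, had a change of 0.0061 (adjusted p = 0.944).

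The H1975 response was set against those of PC9 and HCC827 by testing, in all 12 libraries, whether its difference departed from the mean of theirs. limma called 6727 of 10984 genes (61.2%), 3268 above (29.8%) and 3459 below (31.5%) the other lines. The PC9 values come from a table with a different set of filled genes, so differences were taken within a line first. Of the epithelial junction genes 31 of 34 lay below the other lines and 1 above. Their median change was 0.23 in PC9, over the 23 tested there, and 0.095 in HCC827, over 34. For members that did not pass the filter in PC9, the departure rests in part on low values there. CDH1 departed by -2.75 ± 0.0828 (SE, limma adjusted p = 7.36e-12): it fell by 2.23 in H1975 but rose by 0.99 in PC9 (adjusted p = 1.52e-06), and stood at 0.058 in HCC827 (adjusted p = 0.736). EHF, ITGB4 and MUC1 also fell in H1975 and rose in PC9, by 1.05, 1.06 and 0.71, and departed by -3.06, -2.97 and -2.10 (adjusted p = 7.36e-12, 1.18e-11 and 4.15e-09). S100P fell by 1.41 in H1975 and rose by 1.79 in PC9 and 0.88 in HCC827. In the other direction CXCL8 rose by 1.57 in H1975 and was lower in PC9 (-0.87) and HCC827 (-0.73), and VIM fell by 0.63 in HCC827. TGFA, which fell in H1975, rose by 1.34 in PC9 (departure -3.09, adjusted p = 1.95e-11).

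**Figure D5:**
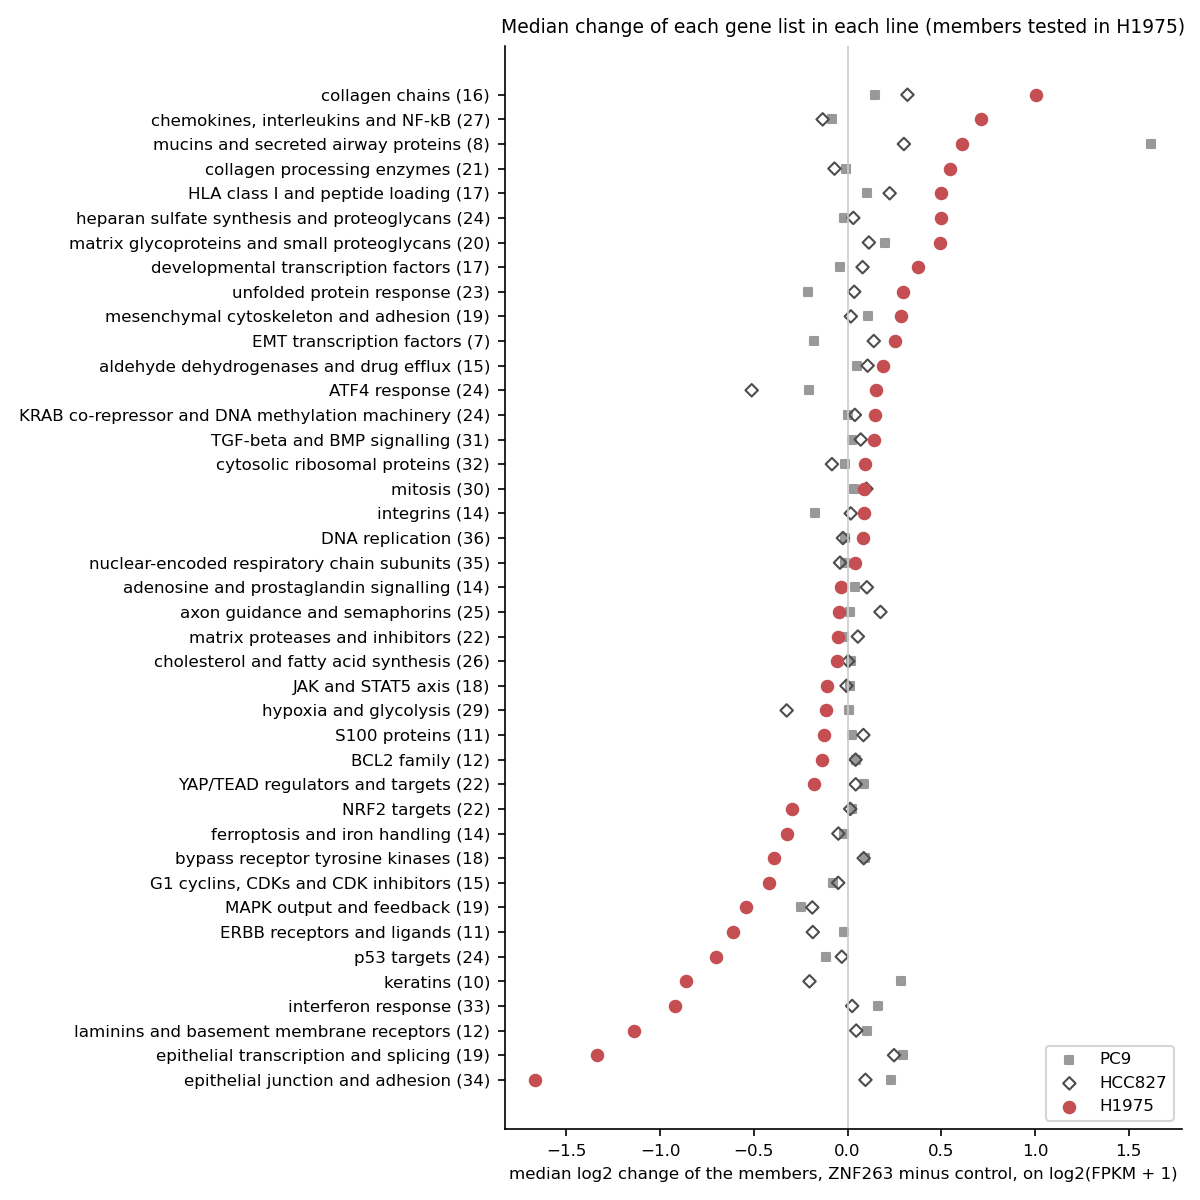
Median log2 change of the members of each list (ZNF263 minus control, on log2(FPKM + 1), number tested in H1975 in brackets) in H1975 (circles), PC9 (squares) and HCC827 (diamonds). The PC9 and HCC827 medians cover only the members also tested in that line. H1975 spans from -1.66 for the junction list to 1.003 for collagens, and the other lines lie nearer 0 for most lists, with the mucin list in PC9 as the widest exception.

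The genes that stood furthest above the other lines were MGP, CCL2, ADORA2A, COL1A2 and CHI3L1, with departures between 3.41 and 3.80, and furthest below were RNASE7, SPINK1, IFI27, PTGS2 and MMP1, between -4.10 and -3.42. MGP, RNASE7 and SPINK1 did not pass the filter in PC9 or in HCC827, so these departures are close to the H1975 changes themselves. AURKA fell less in H1975 than in the other lines (departure 0.78 ± 0.113 (SE, limma adjusted p = 3.59e-05)), against -1.46 in PC9 and -0.82 in HCC827. EGFR fell more (departure -0.59 ± 0.0613 (SE, limma adjusted p = 1.34e-06)), against -0.52 and -0.32. Some changes were shared: CDKN2C rose by 1.26 in H1975, 0.74 in PC9 and 0.80 in HCC827, COL6A1 by 1.76, 0.59 and 0.59, and FOSL1 and PKIB fell in all 3 lines. These 4, and S100P and CXCL8 above, were chosen after their values were seen. Of the 850 genes called higher in PC9, 46.9% were also called higher in H1975 and 32.9% lower, where 35.9% of all genes tested in both lines were called higher. Of the 750 called lower in PC9, 47.7% were lower and 25.5% higher in H1975, where 33.3% of all genes tested in both were called lower. Of all genes tested in both H1975 and HCC827, 35.1% were called higher and 34.8% lower in H1975. For HCC827 the shares were 44.8% and 33.3% of 851 genes called higher, and 53.3% and 30.7% of 424 called lower. As shares of the H1975 calls these overlaps were between 6.37% and 11.3%. These shares are capped by the number of calls in the other lines, which was smaller. Of the 9800 genes tested in H1975 and PC9, 3520 were called higher and 3259 lower in H1975, against 850 and 750 in PC9. Of the 10197 tested in H1975 and HCC827, 3581 and 3547 were so called in H1975, against 851 and 424 in HCC827. A low share of the H1975 calls therefore does not by itself show that little was shared.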

How the data were processed

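RNA-seq values of 4 H1975 libraries, 2 with a control vector and 2 with ZNF263, were compared, with the 8 libraries of PC9 and HCC827 for reference. The authors deposited FPKM values (fragment counts normalised to gene length and sequencing depth), 1 column per library. The genome build was GRCh38.p13, per the submitters' processing notes. Per the labels' protocols, TRIZOL was used for the RNA and a SMARTER kit for the libraries. Not given in the sources used here were the aligner, the counting tool, the annotation and the strandedness. H1975 in the titles is followed by OR, which the labels do not explain. Groups follow the labels.

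Of 20030 rows, 27 whose names had become dates were dropped, 3339 genes had no value in H1975, and 5663 did not reach 1 FPKM in 2 libraries. The remaining 11001 genes were tested on log2(FPKM + 1) by limma 3.58.1 (R 4.3.3; eBayes with a trended prior, two-sided), with Benjamini-Hochberg adjustment over all of them. Genes with an adjusted p under 0.05 were called, and every adjusted p in the text comes from limma. Whether the response in H1975 departed from the mean of those in PC9 and HCC827 was tested in a limma fit of 12 libraries in 6 groups, over 10984 genes. On simulated data, 99% of 100 genes changed by a log2 of 0.5 and 100% of 100 changed by 1 were recovered in H1975 (11001 genes), and 92% and 100% for the departure (10984 genes). Library totals were not given; whole read numbers, within 0.001, were recovered for 97.8% of tested genes, and gave the depth.

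Members and lists were chosen with earlier results of these data known, so lists are described by counts and medians only. Named genes were EGFR, AURKA and other genes of the study, EMT factors, the 15 largest rises and falls, the first 3 and up to 6 most changed members of a list, the 5 largest gains and losses in FPKM, and the 5 largest departures in each direction. A further 68 list members, the log2 size of 1 and the printed promoters were chosen after their values were seen. Positions are those of GENCODE v29, where 10986 tested genes were placed, and 8977 tested genes matched a RefSeq promoter by symbol. Alternatives were other pseudocounts, filters, scalings and spreads, a replicate block, leaving out each library, and subtracting the median of 50 neighbouring genes. Some genes are not reported here, though they count in the fits and lists.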

Additional observations from a re-analysis of the deposited data

Results flagged for a closer look

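The change with ZNF263 in H1975 differed from the mean of the changes in PC9 and HCC827 for 6727 of 10984 genes (limma, adjusted p under 0.05). The 17 departures named here, each called by that test and given on the log2(FPKM + 1) scale, concern genes of several kinds. Above the other lines were the matrix genes MGP (3.80) and COL1A2 (3.43), the secreted proteins CCL2 (3.71) and CHI3L1 (3.41), the receptor ADORA2A (3.55) and the kinase AURKA (0.78). Below them were the secreted epithelial proteins RNASE7 (-4.10) and SPINK1 (-3.87), the interferon gene IFI27 (-3.71), PTGS2 (-3.52), the protease MMP1 (-3.42) and the EGFR ligand TGFA (-3.09). EHF (-3.06), ITGB4 (-2.97), CDH1 (-2.75) and MUC1 (-2.10) of the epithelial lists and EGFR (-0.59) were also below.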

How the results depend on the processing

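The number of called genes in H1975 was 7759 and lay between 5993 and 7989 under the alternatives, with 2963 to 3951 higher and 3030 to 4056 lower. Leaving out 1 library gave between 6946 and 7254. Genes called higher by a log2 of 1 or more numbered 482 and lay between 356 (filter of 5 FPKM) and 717 (pseudocount of 0.1). Those called lower by as much numbered 576 and lay between 419 and 821 under the same settings. Departures from the other lines numbered 6727 and lay between 5841 and 6791. Of 3523 values of 274 named genes under the alternatives, 3501 were on the same side of the threshold and in the same direction. Less their neighbours, KRT18 (0.34), PSMB8 (-0.13), BST2 (-0.12), TAP1 (-0.12) and STAT5B (0.0093) turned direction. So did SNAI1 (0.15) and ACTN1 (0.32), which were not called before and then were, and NKX2-1 (-0.39), ABCC1 (-0.22), BAX (-0.19) and TNFRSF10B (-0.18) were called lower. With a filter of 5 FPKM, 12 epithelial regulators were called lower in place of 19, because fewer genes were tested. Same-numbered libraries did not deviate together (correlation of deviations over 11001 genes -0.053). This rests on 1 deviation per gene and group and cannot show whether same-numbered libraries were prepared together. A replicate block gave 7799 called genes, 3944 higher and 3855 lower, and 6791 departures. With 2 libraries per group, values differing between cultures, clones or passages cannot be told apart from those of the vector.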
